A study of Homo sapiens with 12 samples.

Results

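Interferon-stimulated genes were followed in human sebocytes exposed to LA or PGN, each with and without RVT. The group holds 39 genes given as a list of symbols. It was chosen by gene name and not by a cut on measured values, though earlier results of these data were known. All 39 were found once in each of the deposited tables, which hold 60671 genes for the LA libraries and 60666 for the PGN libraries, 60630 of them in both. Tested members, those with a mean of at least 1 TPM, numbered 37 in the LA arm, 35 in the PGN arm and 36 in the comparison of the arms.

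Interferons are secreted cytokines that signal through Janus kinases and STAT proteins to switch on a large set of genes. Type I and type III interferons act mostly through ISGF3, a complex containing STAT2 and IRF9 that binds the interferon-stimulated response element (ISRE), and interferon gamma acts mostly at another element, the gamma-activated site (GAS). The products restrict viruses at entry, translation and genome copying, and epithelial cells of the skin and its glands keep a basal level of many of them.

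The cells were SZ95 sebocytes, a single immortalised human cell line from the sebaceous gland, in 4 groups of 3 libraries described as biological replicates: LA, LA+RVT, PGN and PGN+RVT. The series title names RVT as resveratrol, a plant polyphenol, and frames the experiment around lipid accumulation and inflammation; the labels do not spell out LA and PGN, which are taken to be linoleic acid (a fatty acid that fills sebocytes with lipid) and peptidoglycan (a polymer of bacterial cell walls). No group without LA or PGN was analysed here, so both controls carry a stimulus, and the sources used here give no doses or times. Values are TPM, a gene's share of the library's transcripts after scaling by gene length, so levels of different genes can be compared and depth cannot be read from them. Fold changes are log2 differences of log2(TPM + 1), which understates the change of low genes, and a gene was called where its limma p, adjusted over all genes of the fit, was under 0.05.

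Of 20 sebocyte and epithelial markers, keratin KRT8 was the highest, with means of 1754 to 3104 TPM over the groups, and AWAT2 and MC5R, genes of mature sebocytes, were listed at 0 in all libraries. Also, 13 of 14 immune cell markers averaged under 1 TPM in every group, the exception being CD14 at 1.56 to 3.10 TPM. PTPRC, the pan-leukocyte marker, was between 0 and 0.62 TPM in the 12 libraries. The 14 immune markers together summed to 2.28 to 6.19 TPM and 8 fibroblast markers to 10.4 to 16.4 TPM. The 5 melanocyte markers summed to 19.35 to 32.3 TPM, with 3 of them averaging under 1 TPM in every group. MITF averaged 16.2 to 23.4 TPM and was called higher with LA+RVT (log2 fold change 0.34, adjusted p = 0.0134). PMEL was called higher with PGN+RVT (0.62, adjusted p = 0.00799), and its RVT effect was called lower with LA (-0.70, adjusted p = 0.00994). The part of MITF and PMEL in the results was not tested. Of 6 endothelial markers 5 averaged under 1 TPM and only CDH5 was above it, at 16.9 TPM with LA, 6.69 with LA+RVT, 24.8 with PGN and 22.9 with PGN+RVT. CDH5 fell in the LA arm together with some members, and its part in the results was not tested. In these bulk samples, fewer cells of a kind and less RNA per cell cannot be told apart.

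The direction of the called members was mostly downward in one arm and mostly upward in the other. With LA, 10 of 37 members fell and 3 rose; with PGN, 11 of 35 rose and 2 fell. IFITM2, IFITM3, ISG15 and PARP9 fell in the first and rose in the second, while the transcription factor IRF1 and the DNA sensor IFI16 fell in both and IFIT1, which binds foreign RNA, rose in both. Among the genes of opposite direction, only ISG15 kept both calls in every alternative setting tried. The rise of IFITM2 and the fall of PARP9 were called in 0 of 6 fits that leave out 1 library. The effect with LA was below the effect with PGN for all 17 members at which the difference was called, of 36 tested.

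Against the background, 15.7% of all 15409 genes tested were called in the LA arm, 10.7% higher and 5.07% lower, beside 35.1% of the members, 8.11% higher and 27% lower. In the PGN arm 15.6% of 14622 genes were called, 10.6% higher and 4.92% lower, beside 37.1% of the members, 31.4% higher and 5.71% lower. For the difference of the RVT effects, taken as the LA effect minus the PGN effect, 14.8% of 15177 genes were called, 7.03% higher and 7.73% lower, beside 47.2% of the members, all of them lower. No member was called higher by limma, and at an unadjusted p under 0.05 that count was also 0. The split of all genes depends on the scale: with library medians equalised it was 1041 higher and 1080 lower with LA in place of 1645 and 781, and 850 higher and 1020 lower with PGN in place of 1557 and 720. Rescaling without mitochondrially encoded and ribosomal protein genes gave 1014 higher and 971 lower with LA. With medians equalised the members were 2 higher and 13 lower with LA, 8 higher and 2 lower with PGN, and 0 higher and 16 lower in the difference.

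The median log2 fold change of the tested members was -0.072 with LA, where all genes had 0.036, and 0.23 with PGN, where all genes had 0.064. With LA it was -0.11 without LA replicate 1 and -0.14 without LA+RVT replicate 3. Under either other scaling it was -0.12 with LA. All genes then had -0.011 with medians equalised and -0.0075 after rescaling. For the difference the members had a median of -0.35, beside -0.026 over all genes. Values were above 0 for 10 of 37 members with LA, beside 57.6% of all genes, and for 29 of 35 with PGN, beside 62.2%. With LA the count was 6 under either other scaling. The share of all genes was then 47.9% with medians equalised and 48.6% after rescaling. Of the 35 members tested in both arms, 21 (60.0%) lay below 0 with LA and above 0 with PGN, a pattern held by 23.5% of 14126 genes, and 2 lay the other way. The summed level of all 39 was 2108 ± 35.1 TPM (SD, n = 3) with LA and 1742 ± 26.3 with LA+RVT, and it was 1447 ± 59.0 with PGN and 1697 ± 15.7 with PGN+RVT, and in neither arm did the groups overlap. These sums are weighted by IFITM3, the highest member in every group. The share of TPM held by cytosolic ribosomal protein genes was lower with RVT in both arms, at 14.6% and 12.97% with LA and LA+RVT and at 15.9% and 15.1% with PGN and PGN+RVT, and that of mitochondrially encoded genes was also lower, at 13.97% and 13.1%, then 11.5% and 10.7%. After rescaling without both sets, the members were called 2 higher and 12 lower with LA, 10 higher and 2 lower with PGN, and 17 lower in the difference.

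**Figure D1:**
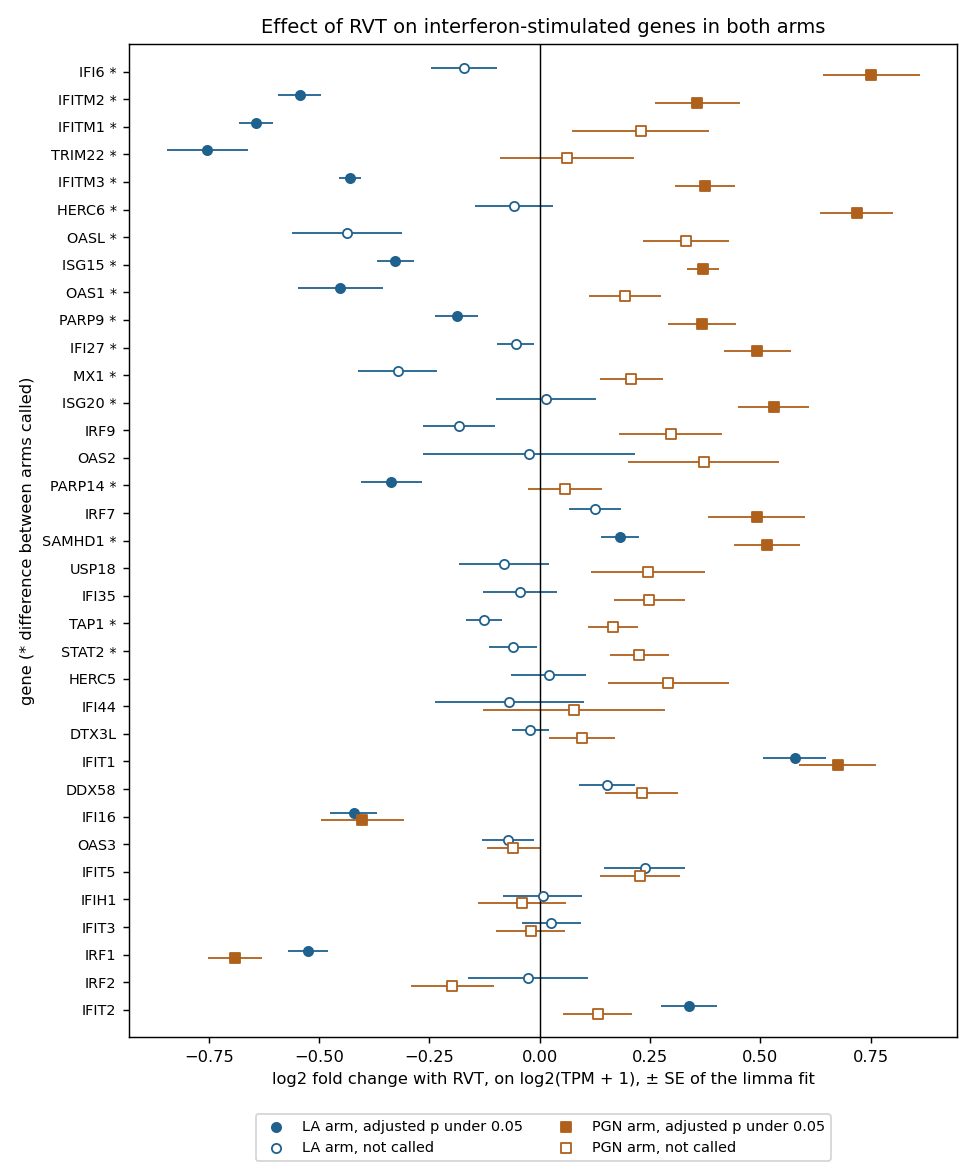
Log2 fold change with RVT for the 35 members tested in both arms, with LA as circles and PGN as squares. Bars are the standard error of the limma fit, filled symbols have an adjusted p under 0.05, asterisks mark members whose difference between the arms was called, and rows are ordered by that difference; in the upper rows the circles lie left of the squares.

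Promoter sequences were taken from RefSeq on GRCh38.p14, in windows from 250 bases before to 50 bases after each annotated start, and 30 of the 39 members matched an entry. IFITM2, IFIT2, MX2, OAS2, OASL, IRF2, IRF7, USP18 and TRIM22 were not among them. An ISRE was searched as GAAANNGAAA on both strands, where runs of GAAA repeats can give overlapping matches, and 20 of the 30 members (66.7%) held one, beside 4.38% of all 27305 genes with a window and 3.57% of all 35116 windows. A GAS was searched as TTCNNNGAA, which is its own reverse complement, and 10 of 30 members (33.3%) held one, beside 9.38% of genes and 7.66% of windows. Both motifs were present at 6 members, and neither was found in the windows of IFI16, STAT2, XAF1, HERC6, DDX58 and SAMHD1. A match is a description of the letters and not a binding site.

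The 4 promoters below belong to the ISRE-bearing members with the smallest p in the difference of the RVT effects. They are printed 5′ to 3′ on the strand of the gene, with the ISRE letters in capitals. Those of ISG15 (chr1:1013247-1013546, plus strand) hold 2 overlapping matches in 1 run, those of IFITM3 (chr11:320811-321110, minus strand) 2 separate ones and those of IFI6 (chr1:27672143-27672442, minus strand) 3. The window of PARP9 (chr3:122564251-122564550, minus strand) holds 1, read on the opposite strand, and lies across the RefSeq start of DTX3L, which is transcribed the other way and whose GENCODE model begins just outside the window. The window of DTX3L was also counted with an ISRE, at -6 to 3 bases from its start. It appears to be the same site, counted for both genes.
ISG15 promoter: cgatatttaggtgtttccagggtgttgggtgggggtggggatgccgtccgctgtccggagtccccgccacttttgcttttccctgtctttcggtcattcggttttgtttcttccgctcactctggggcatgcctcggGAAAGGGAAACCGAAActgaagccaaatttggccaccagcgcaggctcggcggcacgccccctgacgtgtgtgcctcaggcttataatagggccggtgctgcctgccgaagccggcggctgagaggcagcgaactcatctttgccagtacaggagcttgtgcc
IFITM3 promoter: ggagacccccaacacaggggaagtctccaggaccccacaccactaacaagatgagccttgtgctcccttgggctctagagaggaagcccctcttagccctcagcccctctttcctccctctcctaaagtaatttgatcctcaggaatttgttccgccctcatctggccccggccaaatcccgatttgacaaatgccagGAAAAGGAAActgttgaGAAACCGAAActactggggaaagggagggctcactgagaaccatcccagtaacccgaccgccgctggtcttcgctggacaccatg
IFI6 promoter: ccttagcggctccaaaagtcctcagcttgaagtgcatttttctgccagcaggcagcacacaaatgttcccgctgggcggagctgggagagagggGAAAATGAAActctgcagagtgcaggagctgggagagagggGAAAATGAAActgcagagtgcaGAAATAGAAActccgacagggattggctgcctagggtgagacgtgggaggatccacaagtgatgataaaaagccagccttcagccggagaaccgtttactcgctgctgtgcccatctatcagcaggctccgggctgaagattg
PARP9 promoter: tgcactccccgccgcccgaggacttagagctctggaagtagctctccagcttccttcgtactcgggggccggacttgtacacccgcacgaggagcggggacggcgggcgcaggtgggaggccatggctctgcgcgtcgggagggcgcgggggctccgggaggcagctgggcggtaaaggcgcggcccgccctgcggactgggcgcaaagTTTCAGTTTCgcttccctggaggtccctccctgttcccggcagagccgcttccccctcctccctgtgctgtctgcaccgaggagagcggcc

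The other 6 members that held an ISRE and were called in the difference are shown as 30 bases around 1 match, read on the strand that carries the motif, so that the shared core and the differing flanks can be compared. Their positions are chr14:94110618-94110647 for IFI27, chr11:313990-314019 for IFITM1, chr21:41420559-41420588 for MX1, chr6:32853819-32853848 for TAP1, chr15:88638937-88638966 for ISG20 and chr3:122680800-122680829 for PARP14.
IFI27 site: cattttccagGAAACCGAAActgcagacat
IFITM1 site: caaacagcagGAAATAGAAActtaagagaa
MX1 site: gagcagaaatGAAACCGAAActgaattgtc
TAP1 site: aggggaaagcGAAATCGAAAgcggccgcct
ISG20 site: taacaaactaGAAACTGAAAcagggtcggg
PARP14 site: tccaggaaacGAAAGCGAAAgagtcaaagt

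Called members were found both with and without the motif. In the difference of the RVT effects, 10 of 19 tested members with an ISRE were called lower, and so were 4 of 9 without one, with median log2 values of -0.39 and -0.29. With LA, 5 of 19 with the motif and 3 of 9 without it fell, and with PGN, 7 of 18 and 2 of 9 rose and 0 of 18 and 2 of 9 fell. Among all other genes the share called lower in the difference was 9.52% of 399 with an ISRE and 7.94% of 10371 without. The share called lower with LA was 8.42% with and 4.95% without an ISRE, and with PGN 9.90% and 11.5% were called higher and 5.73% and 5.21% lower. These counts are given without a test.

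**Figure D2:**
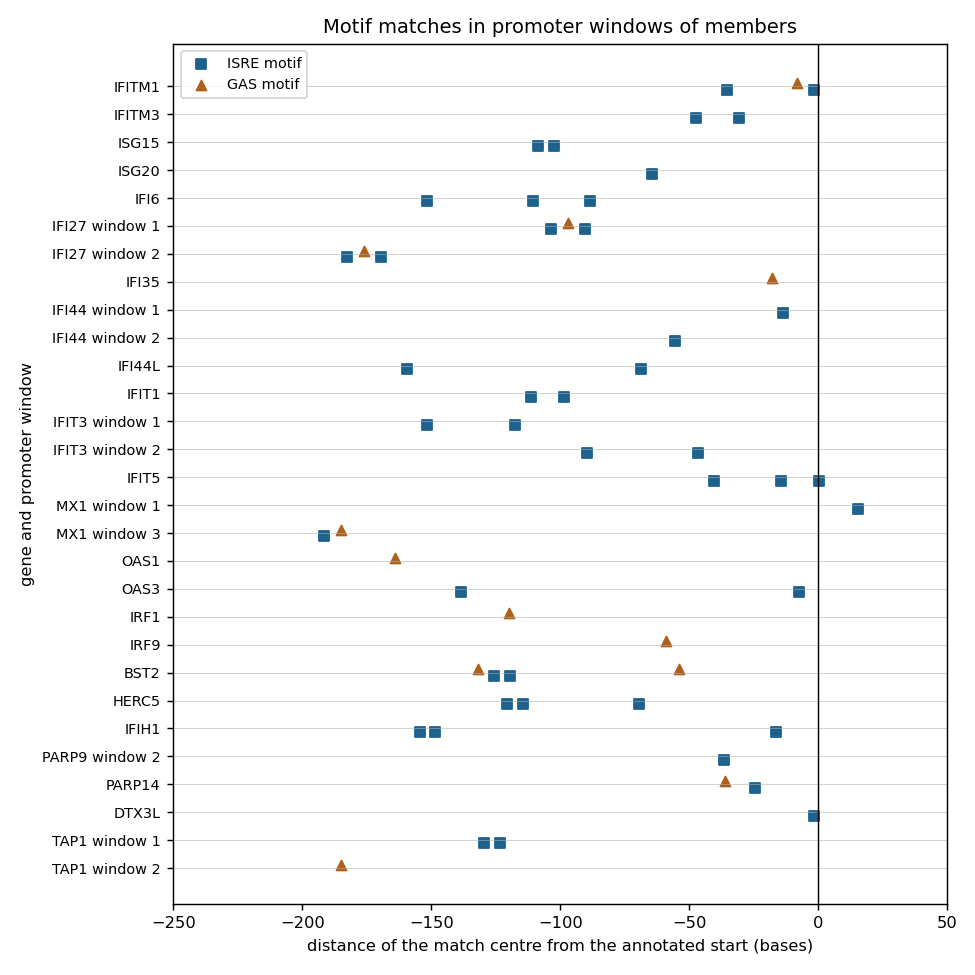
Positions of motif matches in the promoter windows of members with at least 1 match, as the distance in bases of the centre of the match from the annotated start (vertical line at 0). Squares are ISRE matches and triangles are GAS matches; nearly all matches lie before the start.

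The IFITM proteins sit in endosomal and plasma membranes and block the fusion of entering viruses. IFITM3 was the most abundant member, with 642, 622 and 628 TPM for LA and 467, 457 and 479 for LA+RVT. With PGN it was at 362, 404 and 440 TPM and with PGN+RVT at 511, 526 and 522. Neither pair of groups overlapped, and the order of the RVT and control libraries was opposite in the 2 arms. The log2 fold change was -0.43 ± 0.025 (SE, adjusted p = 0.000257) with LA and 0.37 ± 0.068 (adjusted p = 0.0126) with PGN, and the difference was -0.80 ± 0.077 (adjusted p = 6.69e-05). The PGN call was lost when library medians were equalised (adjusted p = 0.0539).

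IFITM2 read 55.5, 60.0 and 60.4 TPM with LA and 40.9, 38.6 and 40.2 with LA+RVT, a log2 fold change of -0.54 ± 0.049 (adjusted p = 0.00102). With PGN it read 41.5, 40.6 and 38.4 TPM and with PGN+RVT 49.0, 46.8 and 60.3, a change of 0.36 ± 0.097 (adjusted p = 0.0478). The groups of each arm were apart, with 1 PGN+RVT library well above the other 2. The rise with PGN lost its call without any 1 of its 6 libraries (adjusted p up to 0.112) and under both other scalings, whereas the difference of -0.90 ± 0.11 (adjusted p = 0.000443) was called in each of the 12 fits that leave out 1 library.

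IFITM1, the family member found mainly at the cell surface, was at 140.0, 133 and 133 TPM with LA and 85.2, 84.1 and 89.8 with LA+RVT, a log2 fold change of -0.64 ± 0.039 (adjusted p = 0.000291). Under PGN its control libraries spread from 66.8 over 82.7 to 106 TPM and those with PGN+RVT read 109, 91.6 and 94.5, so the groups overlapped and the change of 0.23 ± 0.16 was not called (adjusted p = 0.368). The difference was -0.87 ± 0.18 (adjusted p = 0.00750). These 3 genes are close paralogs in 1 cluster, and in GENCODE 29 on GRCh38 the IFITM2 model (chr11:307631-315272) spans that of IFITM1 (chr11:313506-315272), both on the plus strand. The sources used here do not say how reads were divided between them, and each value is therefore uncertain. BST2, or tetherin, which holds budding virions at the cell surface, ranged from 0.23 to 5.94 TPM, was not called with LA (-0.52 ± 0.46, adjusted p = 0.496) and was under the level for testing with PGN.

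**Figure D3:**
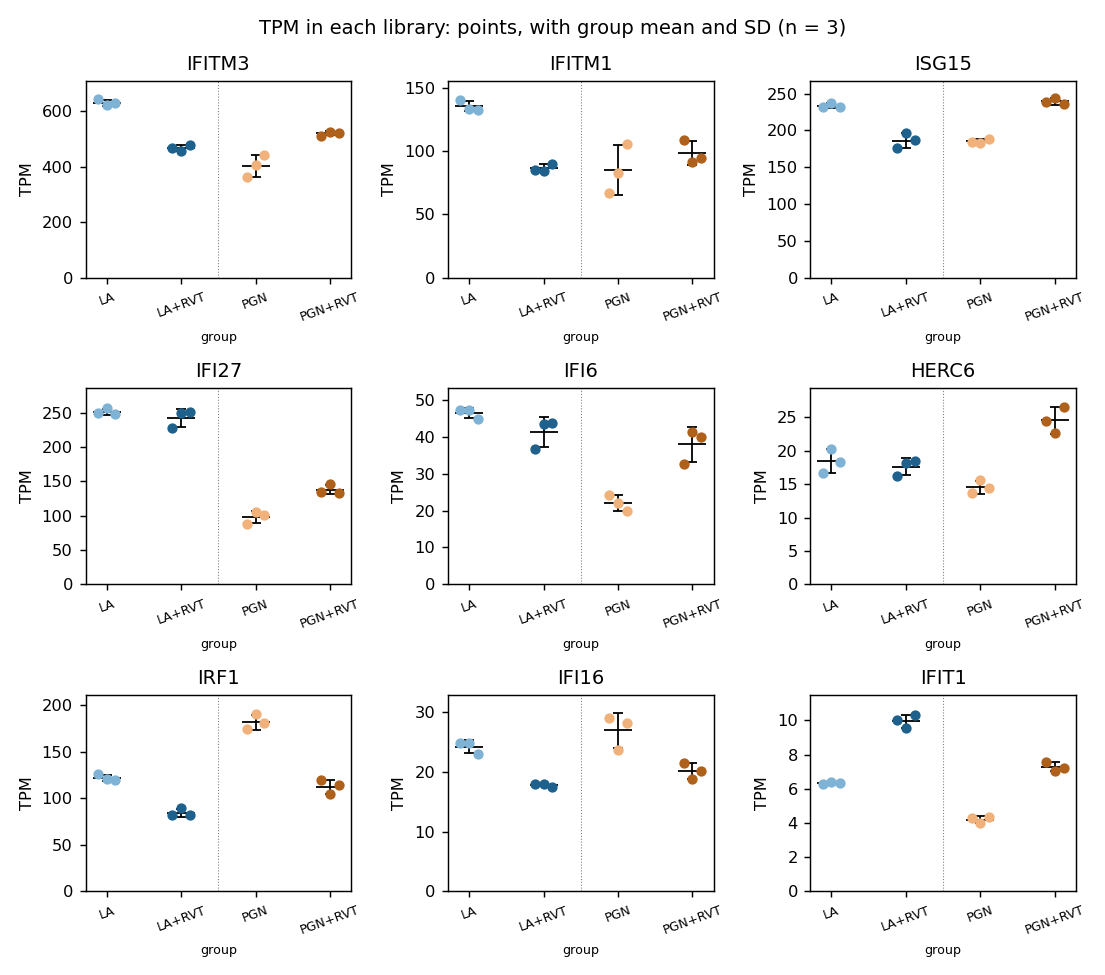
TPM in each library for 9 members, with points for the 3 libraries of each group and a line and bar for the mean and SD. A dotted line separates the LA from the PGN table; IFITM3 and ISG15 are lower with RVT left of it and higher right of it, IRF1 and IFI16 are lower with RVT on both sides, and IFIT1 is higher on both.

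ISG15 encodes a ubiquitin-like protein that is attached to other proteins, and HERC5 is the ligase and USP18 the protease of that cycle. For ISG15 the LA libraries read 231, 237 and 232 TPM and the LA+RVT libraries 176, 196 and 186. It was at 185, 182 and 188 TPM with PGN and at 239, 244 and 235 with PGN+RVT. The library ranges did not overlap in either arm, while the LA+RVT values overlapped those of the PGN libraries and the PGN+RVT values those of the LA libraries, with the tables normalised separately. The log2 fold change was -0.33 ± 0.042 (adjusted p = 0.00386) with LA and 0.37 ± 0.036 (adjusted p = 0.00121) with PGN, and both calls held in every alternative. The difference was -0.70 ± 0.054 (adjusted p = 1.51e-05), the smallest p of any member.

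The 2 upstream enzymes of ISG15 conjugation, from a list of other interferon-induced genes, were UBA7, the activating enzyme, and UBE2L6, the conjugating enzyme. UBE2L6 read 147, 146 and 144 TPM with LA and 130.4, 122 and 123.4 with LA+RVT, and 93.7, 94.5 and 107 with PGN against 123.2, 128 and 138 with PGN+RVT. It followed the order of ISG15, falling with LA (-0.22, adjusted p = 0.00779) and rising with PGN (0.40, adjusted p = 0.00996), with a difference of -0.61 (adjusted p = 0.000442). UBA7 rose with PGN from a mean of 3.46 to 6.67 TPM (0.78, adjusted p = 0.00760) and was 13.9 ± 1.28 with LA and 11.4 ± 3.17 with LA+RVT, where 1 library lay below the others and no call was made (adjusted p = 0.364). The difference for UBA7 was -1.07 (adjusted p = 0.0128). HERC5 was not called in either arm, at 10.7 and 10.9 TPM with LA and LA+RVT and 5.74 and 7.28 with PGN and PGN+RVT. USP18 was likewise not called, at 7.93, 7.47, 4.63 and 5.62 TPM in the same order of groups.

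HERC6, a neighbour of HERC5 in the same ligase family, read 16.7, 20.3 and 18.3 TPM with LA and 16.2, 18.2 and 18.4 with LA+RVT, with the groups overlapping. With PGN it read 13.6, 15.6 and 14.3 TPM and with PGN+RVT 24.5, 22.6 and 26.6, above every PGN library. The change with PGN was 0.72 ± 0.083 (adjusted p = 0.00224), that with LA -0.06 ± 0.088 (adjusted p = 0.704), and the difference -0.78 ± 0.12 (adjusted p = 0.00178).

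PARP9 is an ADP-ribosyltransferase that forms a complex with the ubiquitin ligase DTX3L, and PARP14 is a related enzyme. PARP9 read 28.4, 27.6 and 26.3 TPM with LA and 23.8, 23.8 and 24.4 with LA+RVT (-0.19 ± 0.049, adjusted p = 0.0449). It read 16.5, 14.4 and 15.9 TPM with PGN and 20.3, 19.3 and 21.6 with PGN+RVT (0.37 ± 0.077, adjusted p = 0.0201). Neither pair of groups overlapped. The fall with LA lost its call without any 1 of the 6 libraries (adjusted p up to 0.130) and the rise with PGN without PGN replicate 2, PGN+RVT replicate 1 or PGN+RVT replicate 3 (up to 0.0725), and the difference of -0.56 ± 0.088 (adjusted p = 0.00173) kept its call in each of 12 such fits. DTX3L was not called, at 31.8 and 31.3 TPM in the LA arm and 22.5 and 24.2 in the PGN arm. Its gene model (chr3:122564238-122575203, plus strand) overlaps that of PARP9 (chr3:122527924-122564577, minus strand) at their starts, and the sources used here do not say whether strand was used in counting.

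PARP14 fell with LA from 39.1, 35.3 and 35.8 TPM to 31.4, 28.0 and 27.3 (-0.34 ± 0.069, adjusted p = 0.0214). With PGN the groups overlapped, at means of 18.2 and 19 TPM (adjusted p = 0.694). The fall lost its call without LA replicate 1, LA replicate 3, LA+RVT replicate 2 or LA+RVT replicate 3 (adjusted p up to 0.0674), and the difference of -0.39 ± 0.11 (adjusted p = 0.0362) kept its call in 3 of 12 fits that leave out 1 library (up to 0.0865).

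Of the IFIT proteins, IFIT1 binds viral RNA that lacks the methylation of host caps. IFIT1 rose with LA from 6.26, 6.41 and 6.36 TPM to 10.02, 9.55 and 10.3 and with PGN from 4.29, 3.97 and 4.32 to 7.57, 7.06 and 7.24. Every RVT library lay above every control library of its arm. The log2 fold changes were 0.58 ± 0.071 (adjusted p = 0.00334) and 0.67 ± 0.088 (adjusted p = 0.00357), and the difference of -0.10 ± 0.096 was not called (adjusted p = 0.563). IFIT2 rose with LA from 25.0, 23.4 and 21.99 TPM to 28.8, 29.6 and 31.3 (0.34 ± 0.063, adjusted p = 0.0146) and overlapped with PGN, at means of 13.4 and 14.8 TPM (adjusted p = 0.306). The effects of RVT on IFIT2 were not called as different between the arms (adjusted p = 0.195).

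IFIT3 stayed between 23.5 and 29.4 TPM in all 12 libraries, with group means of 26.4, 26.9, 26.6 and 26.3 for LA, LA+RVT, PGN and PGN+RVT, and IFIT5 had means of 8.70, 10.4, 13.2 and 15.6 TPM. Neither was called in any comparison. The promoter window of IFIT1 held 2 ISRE matches.

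MX1 encodes a dynamin-like GTPase that traps viral nucleocapsids, and the OAS enzymes make the messenger that activates RNase L. MX1 read 30.7, 27.8 and 25.6 TPM with LA and 24.6, 20.6 and 21.5 with LA+RVT, then 13.3, 11.8 and 12.8 with PGN and 14.7, 15.2 and 14.3 with PGN+RVT. Both pairs were apart, but neither arm was called (-0.32 ± 0.089, adjusted p = 0.0539; 0.21 ± 0.071, adjusted p = 0.0957), while the difference of -0.53 ± 0.11 was (adjusted p = 0.00965). The LA value was past the threshold in 6 of 14 alternatives (adjusted p from 0.0194 to 0.143), among them both other scalings and leaving out LA+RVT replicate 1 (0.0416). MX2 averaged 1.46 and 0.947 TPM in the LA arm, where it was not called (adjusted p = 0.281), and 0.483 and 0.677 in the PGN arm, where it was not tested.

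OAS1 read 20.7, 16.3 and 19.9 TPM with LA and 14.1, 13.7 and 12.8 with LA+RVT (-0.45 ± 0.097, adjusted p = 0.0240). It read 9.66, 10.7 and 10.1 TPM with PGN and 10.96, 11.7 and 12.6 with PGN+RVT (0.19 ± 0.081, adjusted p = 0.158). The groups were apart in both arms, and the difference was -0.64 ± 0.13 (adjusted p = 0.00598). The fall with LA was called in 1 of 6 fits that leave out a library, that without LA replicate 2 (adjusted p up to 0.0797 in the others).

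OASL, a relative of OAS1 without its enzymatic activity, was at 6.70, 6.81 and 6.36 TPM with LA, 5.55, 3.87 and 4.60 with LA+RVT, 7.89, 7.71 and 8.39 with PGN and 10.4, 11.5 and 9.16 with PGN+RVT. The groups of each arm did not overlap. Neither arm was called (adjusted p = 0.0593 and 0.0602), but the LA value passed in 3 of 14 alternatives (adjusted p from 0.0205 to 0.154), among them leaving out LA+RVT replicate 1 (0.0365) and equalising library medians, and the difference was -0.77 ± 0.16 (adjusted p = 0.00724). OAS2, at means of 4.003, 4.03, 1.61 and 2.36 TPM, and OAS3, at 38.7, 36.8, 36.1 and 34.6 TPM for LA, LA+RVT, PGN and PGN+RVT, were called in no comparison.

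SAMHD1, which lowers the pool of nucleotides that viral copying needs, rose in both arms. It read 34.6, 35.5 and 34.0 TPM with LA and 40.8, 38.5 and 39.3 with LA+RVT (0.18 ± 0.043, adjusted p = 0.0328), and 29.1, 25.4 and 27.4 with PGN and 36.7, 39.6 and 42.0 with PGN+RVT (0.51 ± 0.074, adjusted p = 0.00539). Groups were apart in both. The rise with LA lost its call without any 1 of the 6 libraries (adjusted p up to 0.104) and under both other scalings. The difference of -0.33 ± 0.085 (adjusted p = 0.0236) lost its call without LA replicate 2, LA+RVT replicate 2, PGN replicate 2 or PGN+RVT replicate 3 (up to 0.0562).

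ISG20 is an exonuclease of RNA. Its LA groups overlapped, at 24.1, 27.4 and 28.8 TPM without and 25.3, 24.4 and 31.9 with RVT (adjusted p = 0.951). With PGN it rose from 16.7, 18.9 and 16.8 to 23.5, 26.9 and 26.6 TPM (0.53 ± 0.080, adjusted p = 0.00647), and no library of the groups overlapped. The difference of -0.52 ± 0.15 (adjusted p = 0.0362) was called in 4 of 12 fits that leave out a library (adjusted p up to 0.0843). It lost its call with library medians equalised.

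TRIM22, a ubiquitin ligase that restricts viral transcription, had the largest fall of a tested member with LA, from 23.7, 20.2 and 19.9 TPM to 12.2, 11.2 and 13.2 (-0.75 ± 0.091, adjusted p = 0.00317). With PGN the groups overlapped, at 8.57, 7.83 and 5.46 TPM without and 8.06, 7.15 and 7.39 with RVT (adjusted p = 0.822). The difference was -0.81 ± 0.19 (adjusted p = 0.0138).

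IFI16, a sensor of DNA in the nucleus and cytosol, went down in both arms. It read 24.9, 24.9 and 23.0 TPM with LA and 18.0, 18.0 and 17.5 with LA+RVT (-0.42 ± 0.054, adjusted p = 0.00376), and 29, 23.6 and 28.3 with PGN and 21.5, 18.8 and 20.1 with PGN+RVT (-0.40 ± 0.094, adjusted p = 0.0289). The groups did not overlap, and the difference of -0.02 ± 0.11 was not called (adjusted p = 0.938). The fall with PGN kept its call in 1 of 6 fits that leave out a library, that without PGN replicate 2 (adjusted p up to 0.0948 in the others). The cytosolic RNA sensors were not called: DDX58, or RIG-I, had means of 11.8, 13.2, 7.60 and 9.07 TPM and IFIH1, or MDA5, 13.2, 13.3, 10.6 and 10.3 TPM for LA, LA+RVT, PGN and PGN+RVT.

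IRF1, a transcription factor induced by interferon gamma and inflammatory signals, was called lower in both arms. It read 125, 120.4 and 119 TPM with LA and 81.5, 89.5 and 81.8 with LA+RVT (-0.52 ± 0.046, adjusted p = 0.000960). It read 174, 190.1 and 181 TPM with PGN and 119, 104 and 114 with PGN+RVT (-0.69 ± 0.061, adjusted p = 0.000832). Every control library lay above every RVT library of its arm. The difference of 0.17 ± 0.080 was not called (adjusted p = 0.200). Its promoter window held a GAS match and no ISRE match.

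IRF7, which drives type I interferon genes, rose with PGN from 12.03, 14.4 and 15.9 TPM to 18.4, 21.4 and 20.7 (0.49 ± 0.11, adjusted p = 0.0252), with the groups apart. With LA its groups overlapped, at 22.1 and 24.2 TPM (adjusted p = 0.210). The rise lost its call without PGN replicate 2, PGN+RVT replicate 2 or PGN+RVT replicate 3 (adjusted p up to 0.0862). It was also lost with library medians equalised and with no filter on low values. The difference was not called (adjusted p = 0.0863) but was without PGN replicate 3 (0.0321).

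The ISGF3 subunits among the members showed smaller values. STAT2 was at 42.2, 40.9 and 38.2 TPM with LA and 39.4, 37.0 and 39.7 with LA+RVT, which overlapped, and at 16.1, 16.1 and 17.5 with PGN and 18.6, 20.1 and 19.9 with PGN+RVT, which did not. Neither arm was called (adjusted p = 0.499 and 0.0640), and the difference of -0.29 ± 0.081 was (adjusted p = 0.0373), in 3 of 12 fits that leave out a library (adjusted p up to 0.0907). The STAT2 difference lost its call with library medians equalised. IRF9 had means of 31.1, 27.3, 13.9 and 17.4 TPM and was not called in any comparison, although the difference (adjusted p = 0.0567) passed in 4 of 19 alternatives (adjusted p from 0.0414 to 0.132), among them leaving out PGN+RVT replicate 1 (0.0489) or PGN+RVT replicate 2 (0.0469). IRF2, which can repress interferon genes, had means of 24.8, 24.0, 18.6 and 16.03 TPM and was not called.

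IFI27 and IFI6 encode small membrane proteins of mitochondria and the endoplasmic reticulum. IFI27 was at 249.6, 256 and 248 TPM with LA and 227, 249 and 251 with LA+RVT, which overlapped (adjusted p = 0.441). With PGN it stood at 87.3, 105 and 101 TPM and rose with PGN+RVT to 135, 146 and 133 (0.49 ± 0.076, adjusted p = 0.00680). The PGN groups did not overlap, and the difference was -0.55 ± 0.092 (adjusted p = 0.00257).

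IFI6 had the largest log2 fold change of a tested member with PGN, from 24.3, 22.03 and 19.9 TPM to 32.5, 41.4 and 39.98 (0.75 ± 0.11, adjusted p = 0.00561), although the ratio of mean TPM was 1.72 for IFI6 and 1.74 for IFIT1. With LA it read 47.3, 47.3 and 44.9 TPM and with LA+RVT 36.6, 43.5 and 43.7, ranges that did not overlap but whose change was not called (-0.17 ± 0.074, adjusted p = 0.172). The difference of -0.92 ± 0.14 (adjusted p = 0.00153) was the largest of any tested member on the log2(TPM + 1) scale. IFI35 had means of 26.6, 25.9, 25.1 and 30.02 TPM and IFI44 of 8.89, 8.55, 4.56 and 4.71 TPM for LA, LA+RVT, PGN and PGN+RVT, and neither was called. IFI44L, between 0 and 1.02 TPM, and XAF1, between 0 and 0.67 TPM, were under the level for testing in both arms.

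TAP1, a subunit of the transporter that feeds peptides to MHC class I, was at 43.8, 42.8 and 44.2 TPM with LA, 38.9, 39.8 and 41.0 with LA+RVT, 33.2, 35.9 and 34.2 with PGN and 37.5, 39.7 and 39.0 with PGN+RVT. The groups of both arms were apart. Neither change was called (-0.13 ± 0.040, adjusted p = 0.0831; 0.17 ± 0.056, adjusted p = 0.0896), though the LA value passed under both other scalings and the PGN value with all 12 libraries in 1 fit, and the difference of -0.29 ± 0.063 was (adjusted p = 0.00994).

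**Figure D4:**
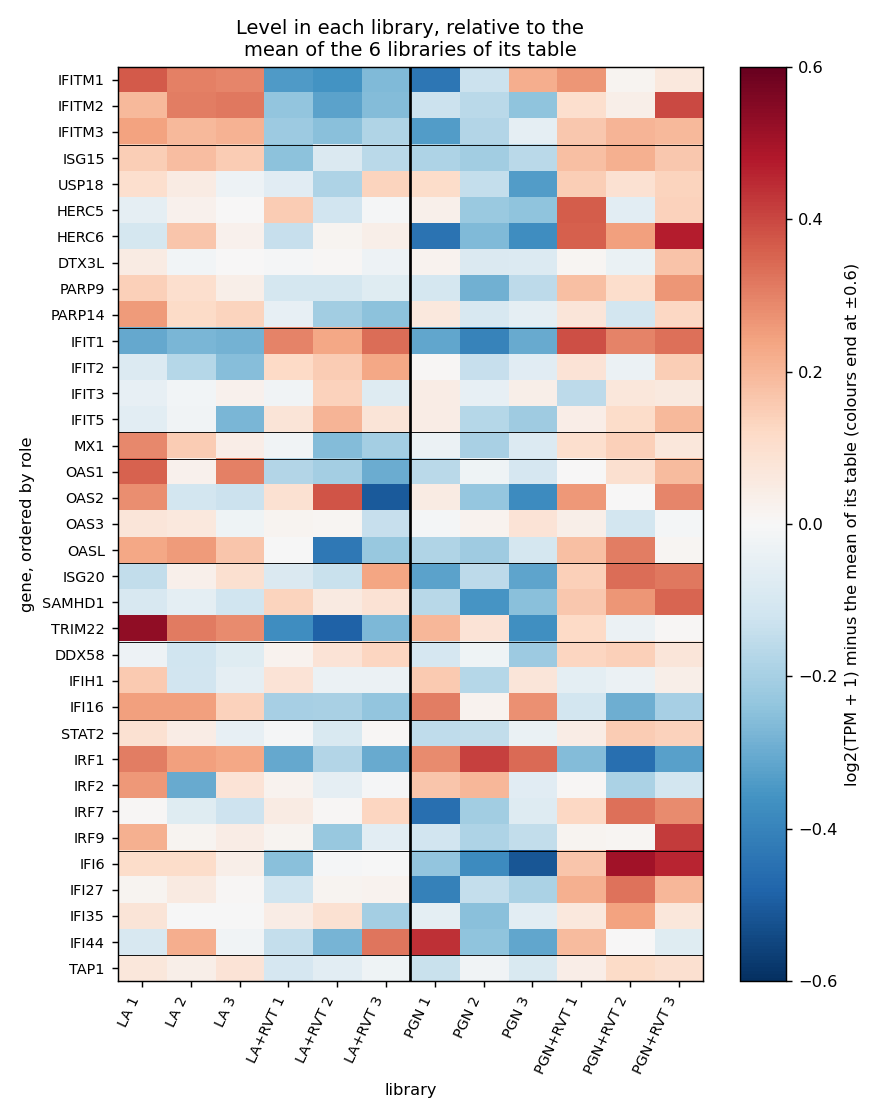
Level of the 35 members tested in both arms, as log2(TPM + 1) minus the mean of the 6 libraries of the same table, with members ordered by role and thin lines between roles. Red is above and blue below the mean, colours end at 0.6 in either direction, and the thick line separates the tables; the rows of IFITM2, IFITM3 and ISG15 change from red to blue with RVT left of that line and from blue to red right of it, while IFITM1 does so on the left and is mixed on the right.

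By role, 3 of 4 genes of membrane restriction were called in the difference, 4 of 7 of the ubiquitin-like and ADP-ribose group, 0 of 4 IFIT genes, 1 of 1 tested MX gene, 2 of 4 OAS genes, 3 of 3 nucleases and intracellular restriction factors, 0 of 3 sensors, 1 of 5 transcription factors, 2 of 4 tested small interferon-induced proteins, and TAP1. Of all 15177 genes tested, 14.8% were called in the difference. Each role holds too few genes to be set against that share. Of the 17 calls among members, 13 held in every alternative tried, all but ISG20, STAT2, PARP14 and SAMHD1. In the LA arm IFITM1, IFITM2, IFITM3, ISG15, IFI16, IFIT1, IRF1 and TRIM22 held in every alternative, and in the PGN arm ISG15, ISG20, IFI6, IFI27, IFIT1, IRF1, HERC6 and SAMHD1 did.

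Without RVT the listed genes stood higher with LA than with PGN, as a description only, since the tables were normalised separately and 1432 shared gene identifiers carry different names in them. Of 36 members, 31 (86.1%) had the higher mean with LA, beside 66.7% of 15177 genes, the 5 others being IFI16, IFIT3, IFIT5, OASL and IRF1. The median absolute gap between LA and PGN was 0.60 (log2) without RVT and 0.39 with RVT for the members, and 0.35 and 0.29 for all genes. The gap was smaller with RVT for 27 of 36 members (75.0%) and 59.4% of all genes. The change of this gap with RVT is nearly the difference of the RVT effects given above, so these counts are not a separate result. The table and the stimulus cannot be told apart in these levels.

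Ligands were near the floor of the tables. Of 13 interferon genes found, none reached a mean of 1 TPM in any group, so none was tested, and the highest was IFNE, an epithelial type I interferon, at 0.427 TPM. The 13 together summed to between 0.26 and 0.79 TPM in the 12 libraries.

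Among 6 receptor chains, none was called with LA and 2 were called lower with PGN, both subunits of the interferon gamma receptor. Over all genes 15.7% were called with LA, and 4.92% were called lower with PGN. IFNGR1 read 63.0, 58.1 and 63.1 TPM with PGN and 30.7, 31.8 and 33.9 with PGN+RVT (-0.91, adjusted p = 0.000272). IFNGR2 read 50.4, 44.7 and 44.3 TPM with PGN and 29.5, 30.5 and 28.8 with PGN+RVT (-0.63, adjusted p = 0.00153). The groups were far apart for both. With LA the means were 34.5 and 29.3 TPM for IFNGR1 and 38.9 and 38.3 for IFNGR2, and the differences between the arms were 0.68 (adjusted p = 0.00102) and 0.61 (adjusted p = 0.000442). Both subunits fell in the arm in which 11 listed genes rose and 2 fell, and a link between these changes was not tested. The type I receptor chains were not called, with IFNAR1 at 23.6, 20.2, 18.0 and 19.6 TPM and IFNAR2 at 14.04, 11.2, 11.6 and 10.6 TPM for LA, LA+RVT, PGN and PGN+RVT. IFNLR1, the specific chain of the type III receptor, averaged 10.1, 9.90, 6.41 and 8.04 TPM, and IL10RB, its shared chain, 27.01, 24.1, 21.9 and 22.5 TPM, and neither was called.

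Of 12 genes of Janus kinase and STAT signalling, 3 rose and 0 fell with LA, and 1 rose and 0 fell with PGN. The shares called higher were 25.0% with LA and 8.33% with PGN, beside 10.7% and 10.6% of all genes. Over all genes 5.07% and 4.92% were called lower. SOCS1 and SOCS3 are feedback inhibitors of the kinases. SOCS3 read 12.7, 12.3 and 11.3 TPM with LA and 17.4, 19.5 and 19.6 with LA+RVT (0.60, adjusted p = 0.00344), and SOCS1 0.40, 0.74 and 0.71 TPM against 2.19, 1.71 and 1.86 (0.86, adjusted p = 0.0217). In both the LA groups were apart. With PGN their means were 17.1 and 15.0 TPM and 1.78 and 0.957 TPM, not called (adjusted p = 0.163 for each), and the difference was 0.78 for SOCS3 (adjusted p = 0.000647) and 1.39 for SOCS1 (adjusted p = 0.00685). Both inhibitors were called higher in the arm in which 10 members fell and 3 rose, and a link between these changes was not tested. PTPN11, a phosphatase, also rose with LA (0.16, adjusted p = 0.0167). PIAS1, an inhibitor of STAT signalling, rose with PGN from a mean of 15.9 to 25.0 TPM (0.63, adjusted p = 0.00145), with a difference of -0.67 (adjusted p = 0.000633). JAK1 averaged 57.4, 56.7, 46.3 and 46.7 TPM, TYK2 88.4, 81.7, 57.3 and 61.3, and JAK2 3.15, 2.72, 1.14 and 1.58 for LA, LA+RVT, PGN and PGN+RVT, and none of these kinases was called.

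Among 15 sensors of nucleic acids and their signalling partners, 1 of 13 tested rose with LA, and 1 rose and 2 fell of 12 tested with PGN. The shares called higher were 7.69% with LA and 8.33% with PGN, beside 10.7% and 10.6% of all genes. With PGN 16.7% were called lower, beside 4.92% of all genes. CGAS, the cytosolic DNA sensor, rose with LA from 11.1, 10.3 and 9.63 TPM to 14.7, 13.5 and 13.6 (0.40, adjusted p = 0.0157). STING1, its downstream adaptor, rose with PGN from 9.23, 9.34 and 9.50 TPM to 15.3, 17.2 and 15.7 (0.72, adjusted p = 0.00127). Neither pair of groups overlapped. STING1 averaged 21.1 TPM with LA and 19.3 with LA+RVT, and its difference was -0.84 (adjusted p = 0.000473). The genes that fell with PGN were the kinase IKBKE (-0.42, adjusted p = 0.0108) and the RIG-I ligase TRIM25 (-0.18, adjusted p = 0.0383). For the difference, CGAS, TRIM25 and TICAM1 were called higher and STING1, IRF3 and TLR3 lower, of 12 tested. That is 25.0% in each direction, beside 7.03% higher and 7.73% lower over all genes.

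A list of 62 other interferon-induced genes, 57 of them tested, had 4 higher and 19 lower with LA, 8 higher and 5 lower with PGN, and 4 higher and 12 lower in the difference. The higher and lower shares were 7.02% and 33.3% with LA, 14.04% and 8.77% with PGN, and 7.02% and 21.1% in the difference, beside the shares of all genes given above, of 10.7% and 5.07%, 10.6% and 4.92%, and 7.03% and 7.73%. Their median log2 fold changes were -0.060, 0.070 and -0.13, where all genes had 0.036, 0.064 and -0.026, so the median with PGN lay near that of all genes. The largest changes were in CXCL10 and CXCL11, chemokines that draw T cells through CXCR3. CXCL10 read 20.7, 17.1 and 20.1 TPM with PGN and 0.84, 0.53 and 0.95 with PGN+RVT (-3.52, adjusted p = 2.36e-05). With LA it read 4.01, 3.82 and 3.82 TPM and with LA+RVT 0.59, 0.84 and 0.64 (-1.53, adjusted p = 0.00102). CXCL11 fell from 7.02 ± 0.499 to 1.43 ± 0.254 TPM with PGN (-1.72, adjusted p = 0.000414) and from 7.18 ± 0.224 to 1.57 ± 0.371 with LA (-1.68, adjusted p = 0.000761). Both chemokines fell in both arms, with no library in common, and the difference was called for CXCL10 (1.99, adjusted p = 3.12e-05) and not for CXCL11 (adjusted p = 0.910).

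Other genes of that list varied in direction and in the arms in which they were called. B2M, the invariant chain of MHC class I, read 4236, 4263 and 4312 TPM with LA and 3843, 3827 and 3688 with LA+RVT (-0.17, adjusted p = 0.00238), and averaged 1602 and 1769 TPM in the PGN arm (0.14, adjusted p = 0.0472), with a difference of -0.32 (adjusted p = 0.000764). IFI30, a lysosomal thiol reductase of antigen processing, fell with LA (-0.40, adjusted p = 0.0474) and rose with PGN (0.28, adjusted p = 0.0289). LY6E, a membrane protein, fell with LA (-0.17, adjusted p = 0.00136) and averaged 979 and 1059 TPM in the PGN arm. The guanylate-binding protein GBP1 fell in both arms (-0.50, adjusted p = 0.0167, and -0.60, adjusted p = 0.00464), as did the immunoproteasome subunit PSMB10 (-0.52, adjusted p = 0.000761, and -0.24, adjusted p = 0.0397). APOL6 fell with LA (-0.37, adjusted p = 0.00410), APOL1 rose with PGN (0.42, adjusted p = 0.00738), and the adhesion molecule ICAM1 fell with PGN (-0.88, adjusted p = 0.000249). In the difference ICAM1 was called higher (0.77, adjusted p = 6.64e-05). Called lower in it were IFI30 (-0.68, adjusted p = 0.00579), LY6E (-0.29, adjusted p = 0.00731) and APOL1 (-0.44, adjusted p = 0.00908).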

How the data were processed

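RNA from 12 libraries of SZ95 sebocytes was sequenced, 3 for each of LA, LA+RVT, PGN and PGN+RVT, with groups read from the titles. Values are TPM rounded to 2 decimals, which the authors deposited as 1 table per stimulus. The submitters' processing notes name the build GRCh38.p13 and the tools DESeq2 1.24.0, HISAT2 2.1.0 and RSEM 1.3.1 without their roles, and the release of the annotation is not given in the sources used. TPM columns summed to between 994373 and 997060 and 14489 to 15452 genes reached 1 TPM. TPM is a share of the library, so a gene can lose TPM because others gain, the depth is unknown and no counting interval can be given. No pair of libraries was identical, with at most 1.04% of values the same.

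From these values, log2(TPM + 1) was computed, genes averaging under 1 TPM across a fit's libraries were left out, and the others were tested in R 4.3.3 with limma 3.58.1 (two-sided, prior variance with a trend, Benjamini-Hochberg over all genes, threshold 0.05). Each RVT comparison used the 6 libraries of its table, and the difference of the effects used all 12 on genes in both tables. LA was not tested against PGN, since gene names differ between the tables. The procedure was tested on simulated data with planted changes larger than any reported for a member, so it does not show how well smaller changes are found. The libraries are described as biological replicates, but the sources used here do not say whether they came from separate cultures. The p-values therefore reflect only the spread among these libraries, which may be technical. Replicate numbers do not pair the libraries.

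The members and the lists of other genes were chosen with earlier results of these data known. Every member is named, and in other lists receptors, JAK1, JAK2 and TYK2, the highest ligand, and up to 6 called genes of smallest p per list and comparison. CDH5, KRT8, PTPRC, CD14, AWAT2, MC5R, MITF and PMEL were named after their values were seen, as was UBA7 beside ISG15 in the LA arm and in the difference. Positions are from GENCODE 29 and promoters from RefSeq (GRCh38.p14), which was matched by symbol or gene identifier. Alternatives were another pseudocount (0.1), no filter or 5 TPM, 2 scalings, a constant prior variance, a replicate block, all 12 libraries in 1 fit, and leaving out each library. Protein sequences were not used here, and 1 gene of the list of Janus kinase and STAT signalling is not reported here.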

Additional observations from a re-analysis of the deposited data

Results flagged for a closer look

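For 17 members the effect of RVT differed between the LA arm and the PGN arm by a limma test of the difference itself (12 libraries, adjusted over 15177 genes), and each was lower with LA. They are 47.2% of the 36 members tested, beside 14.8% of all genes called, of which 7.73% of all genes were lower. The calls of ISG20, STAT2, PARP14 and SAMHD1 held in only 4, 3, 3 and 8 of 12 fits that leave out 1 library. The difference, LA effect minus PGN effect on the log2(TPM + 1) scale, was -0.87 for IFITM1, -0.90 for IFITM2 and -0.80 for IFITM3 among the membrane proteins. It was -0.70 for ISG15, -0.78 for HERC6, -0.56 for PARP9 and -0.39 for PARP14 in the ubiquitin-like and ADP-ribose group. The nucleases and restriction factors had -0.52 for ISG20, -0.33 for SAMHD1 and -0.81 for TRIM22. IFI6 had -0.92, IFI27 -0.55, MX1 -0.53, OAS1 -0.64, OASL -0.77, STAT2 -0.29 and TAP1 -0.29. Of these, IFITM2, IFITM3, ISG15 and PARP9 were called in opposite directions in the arms, SAMHD1 was called higher in both, and MX1, OASL, STAT2 and TAP1 were called in neither arm alone. Among those of opposite direction, only ISG15 kept both calls in every alternative.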

How the results depend on the processing

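No member result changed sign while called. Of 1684 combinations of a member result and an alternative, 1566 kept their side of the threshold, 98 lost their call and 20 gained one. Among the 1566, 47 changed sign, each where no call was made under either setting. Members called ranged, leaving out 1 library at a time, from 9 to 12 with LA (13 with all), from 9 to 11 with PGN (13) and from 13 to 17 for the difference (17), and under the other alternatives from 10 to 15, 10 to 16 and 14 to 18.

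All genes called moved further. With LA (2426) the count was 1610 with no filter on low values, 1502 with the replicate block and 1428 to 1690 leaving out 1 library, with 1459, 1428 and 1463 without LA replicate 1, 2 and 3 and 1546 without LA+RVT replicate 2. With PGN (2277) it was 1384 with no filter and 1095 to 1861 leaving out 1 library, with 1236 without PGN replicate 2 and 1095, 1174 and 1201 without PGN+RVT replicate 1, 2 and 3. Leaving out a library also leaves fewer samples, and no filter more genes tested.

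Replicate numbers were also fitted as a replicate block, though same-numbered libraries did not deviate together (correlations -0.070, -0.0068 and -0.029 with LA, 0.032, 0.041 and 0.0081 with PGN). It called 10 members with LA, 12 with PGN and 15 in the difference, and 1574 genes with PGN and 1730 in the difference. TPM holds no depth, so precision rests on 3 libraries a group.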
